A study of Mus musculus with 6 samples.

Results

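The response of monocytic myeloid-derived suppressor cells (M-MDSCs) of the mouse lung to azacytidine and entinostat was followed across all genes of an expression array. It was read from 3 of the 6 arrays of the series, those whose labels name the lung. The other 3 arrays hold M-MDSCs of the bone marrow and serve here for comparison. On each lung array 1 RNA of mock-treated C57BL/6 mice (vehicle, labelled with Cy3, aged 6 to 8 weeks) was hybridised beside 1 RNA of C57BL/6 mice given azacytidine plus entinostat (labelled with Cy5, age not given in the labels). Cells were sorted by flow cytometry. Per the labels, 3 to 6 mice were pooled for a treated RNA and 1 or 2 for a mock RNA. The sources used here do not give dose, schedule, sorting gate or whether the mice bore tumours. The dyes were exchanged on none of the lung arrays, and dye and drug cannot be told apart.

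M-MDSCs are immature monocytic cells that carry CD11b and Ly6C and can suppress T cells. Chemokine receptors such as CCR2 draw them from marrow and blood into tissue, where monocytes can mature into macrophages. Azacytidine is built into nucleic acids and traps DNA methyltransferases, so that DNA methylation is lost as cells divide. Entinostat inhibits class I histone deacetylases, and both drugs are known to change which genes are expressed. The comparison asked how the expression of lung M-MDSCs differed between treated and mock mice.

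After filtering, 21175 genes were tested, 14851 of them with a current gene symbol. Treated and mock cells differed at 6200 genes (29.3% of those tested, adjusted p under 0.05 by limma), of which 3694 were higher (17.4%) and 2506 lower (11.8%) in treated cells. The change exceeded 2-fold at 562 of the higher genes (2.65% of those tested) and at 139 of the lower ones (0.656%), and 4-fold at 48 and 10. The median log2 ratio was 0.54 over the genes called higher and -0.41 over those called lower, and the median log2 ratio of all genes was 0.02. All but 1 of the called genes, 6199 of 6200, had a value of 1 sign on each of the 3 arrays. The test of the mean of these 3 ratios itself favours such genes. Counts of genes that rose or fell in a group of genes are to be read beside the shares of all genes, 17.4% and 11.8%. Signed values are log2 ratios, treated to mock, with the direction taken from the labelled dyes. Headings in the deposited ratio tables name the opposite direction, mock over treated, while their values equal Cy5 over Cy3.

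**Figure D1:**
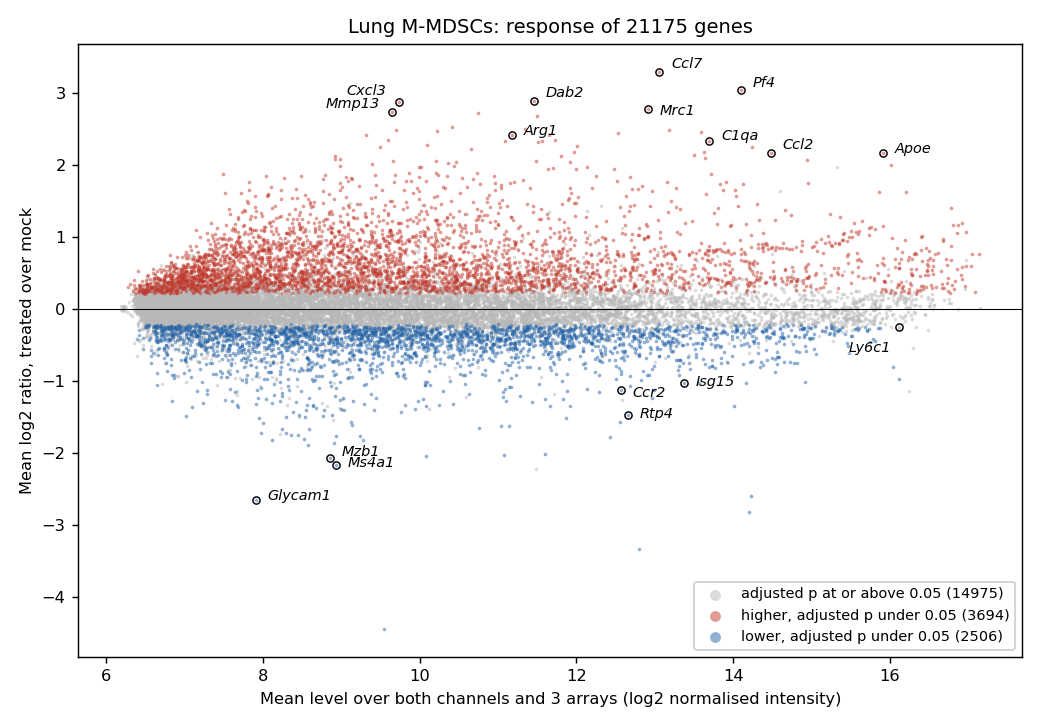
Mean log2 ratio of treated over mock (vertical axis) against mean log2 normalised intensity (horizontal axis) for 21175 genes in lung M-MDSCs, 1 point per gene, coloured by its call. Ccl7 lies highest at 3.29 among genes with a symbol and Glycam1 lowest at -2.66, and Ly6c1, a marker of the sorted cells, lies near 0 and was not called.

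Ratios of the lung arrays correlated with each other across genes at 0.767 (replicates 1 and 2), 0.689 (1 and 3) and 0.849 (2 and 3), and with those of the marrow arrays at 0.16 to 0.364. Genes are not independent replicates. The share of spots well above background ranged from 60.5% to 62.8% for mock and from 67.0% to 69.5% for treated RNA, with no saturated spot. The number of arrays limits the precision. The number of calls depended on single arrays: it was 760 without replicate 2, 2689 without replicate 3 and 6740 without replicate 1. With 2 arrays 1 residual degree of freedom is left. Of the 30 highest and 30 lowest genes with a symbol, 36 of 60 kept their call without replicate 2 and 59 without replicate 3. Replicate 2 also stood apart in the background correction used here: negative control spots kept a Cy5 signal of 87.0 after it, against 13.3 and 14.1 on the other 2 arrays. With the local background merely subtracted, their median Cy5 signal was 4.71 on replicate 2 and 5.13 and 4.89 on the others. When each array was centred on its median in place of the loess fit, the median over all genes rose from 0.02 to 0.14 and the calls to 4135 higher and 481 lower.

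Markers of the sorted cells were present in both channels. Itgam, which encodes CD11b, had normalised intensities of 6543, 7549 and 7891 in mock cells and of 8599, 13813 and 12316 in treated cells (replicates 1, 2 and 3 in this order throughout). Ly6c1, which encodes a Ly6C antigen of monocytes, had 66195, 69301 and 100249 in mock and 53107, 81899 and 63507 in treated cells. Csf1r, the receptor for macrophage colony-stimulating factor, had 53904, 70726 and 66558 in mock and 109322, 106086 and 105875 in treated cells. All 3 were well above background on every array, and the 2 channels overlapped for Ly6c1 only. No probe carried the name of Ly6c2 or Ly6g.

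**Figure D2:**
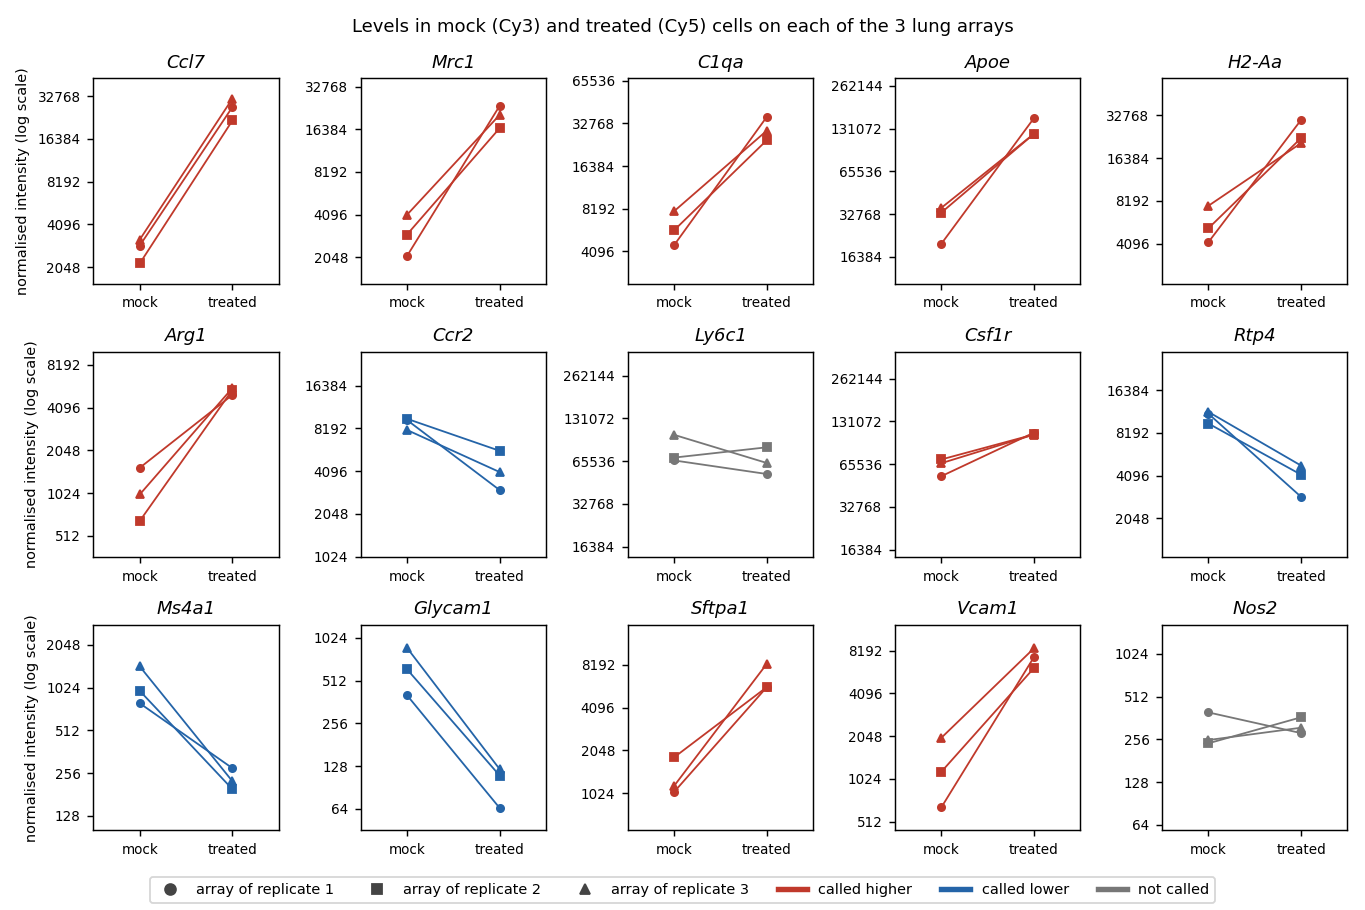
Normalised intensity (log scale, each panel spanning the same number of doublings) of 15 genes in the mock and the treated channel of each lung array, with a line per array coloured by the call. Lines for Ccl7, Mrc1, C1qa, Apoe, H2-Aa and Arg1 rise on all 3 arrays, those for Ccr2, Rtp4, Ms4a1 and Glycam1 fall on all 3, and those for Ly6c1 and Nos2 run both ways.

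Chemokines that attract monocytes were among the largest changes. Ccl7, a ligand of CCR2, stood at 2904, 2173 and 3200 in mock cells and at 27464, 22076 and 31478 in treated cells. The lowest treated value was several-fold above the highest mock value, and the ratio hardly varied between arrays. Ccl7 was 9.81-fold higher, or 3.29 ± 0.05 on the log2 scale (SD, n = 3, adjusted p = 0.00208, probe at chr11:81860656-81860715 of mm9). Ccl2, the main CCR2 ligand, stood at 13613, 9376 and 9736 in mock and at 43315, 48380 and 54033 in treated cells, again without overlap, a log2 ratio of 2.17 ± 0.44. Ccl12, a further CCR2 ligand, rose by 2.44 ± 0.23, and Ccl8 by 1.55 ± 0.91 (adjusted p = 0.035). Ccl8 did not pass with the scanner's processed signals (1.54, adjusted p = 0.0541). The eosinophil attractant Ccl24 rose by 2.33 ± 0.85 and Ccl17, a ligand of CCR4, by 1.69 ± 0.19. Of 16 measured CC chemokines 11 rose and 2 fell (29.3% of all genes called), with a median of 0.93. The 2 that fell were Ccl19, a lymphoid homing ligand of CCR7, at -1.72 ± 0.53, and Ccl5, a product of T and NK cells, at -0.92 ± 0.09. The ratio of Ccl19 was -0.93 when its probes were averaged and -2.65 with the scanner's processed signals.

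Of 17 measured CXC and related chemokines 10 rose and 1 fell, with a median of 0.95. Pf4, a chemokine stored in platelet granules, rose by 3.04 ± 0.46 and the related Ppbp by 2.25 ± 0.19. Neutrophil attractants were unequal. Cxcl3 rose by 2.88 ± 0.75, whereas Cxcl1 and Cxcl2 had mean ratios of 0.65 and 0.53 with arrays of both signs and were not called. Cxcl13, which attracts B cells, rose by 2.18 ± 0.79. Cxcl9, an interferon-induced ligand of CXCR3, was the one that fell, by 0.42 ± 0.20, and did not pass with median centring (-0.21, adjusted p = 0.27). Without replicate 2 the calls of Cxcl3, Ccl24, Cxcl13, Ccl19, Cxcl9 and Ccl8 ended (adjusted p from 0.053 to 0.147), and 5 of the CC and 7 of the CXC chemokines were called higher.

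**Figure D3:**
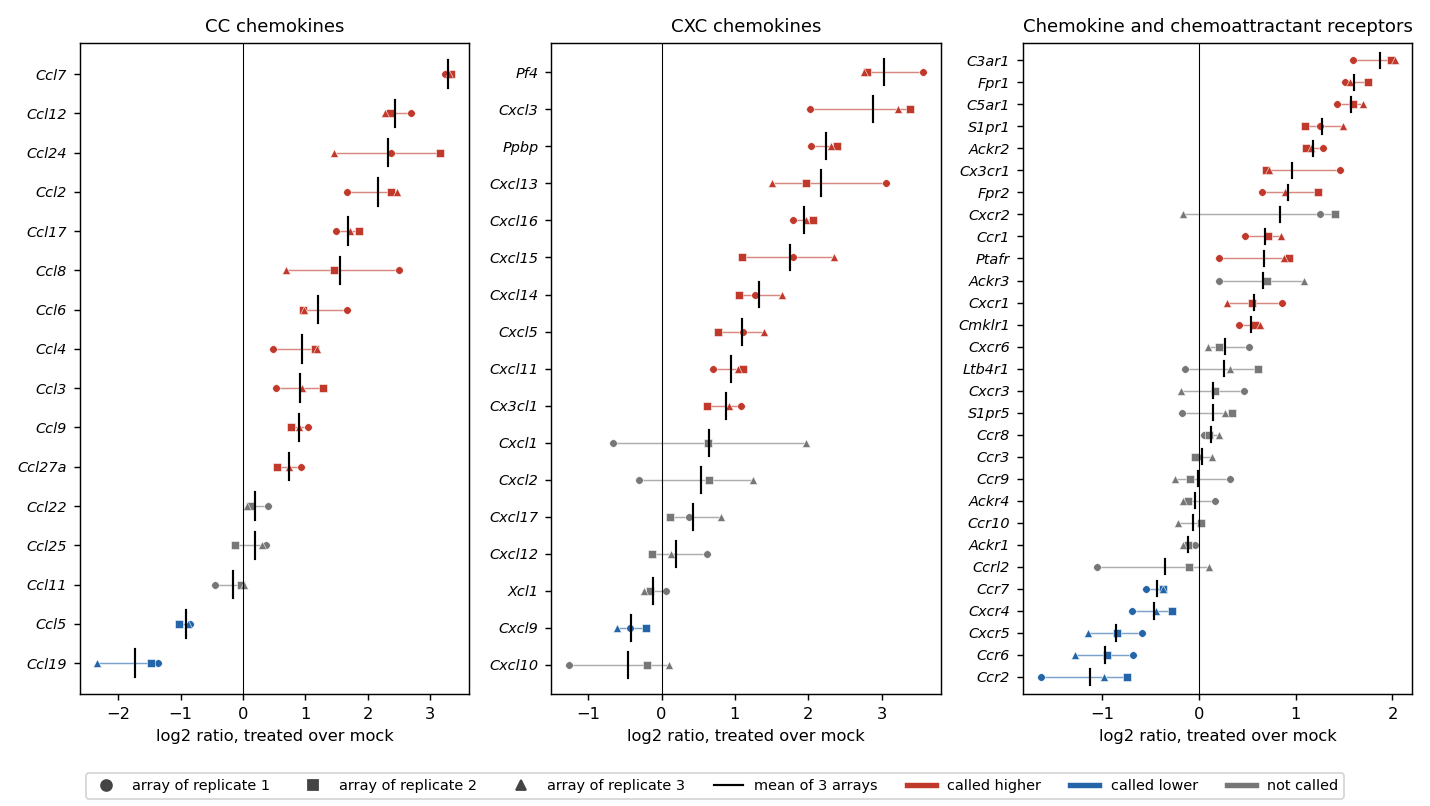
Log2 ratios of treated over mock (horizontal axis) for measured CC chemokines, CXC or related chemokines and chemoattractant receptors (1 receptor is not drawn), with a symbol for each lung array, a black bar for the mean and colour for the call. The 3 symbols of Ccl7 nearly coincide above 3, while those of Cxcl1 spread over both sides of 0, and Ccr2 is the lowest of the receptors at -1.12.

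The receptor for these monocyte attractants went the other way. Ccr2 stood at 9386, 9573 and 7986 in mock cells and at 3012, 5693 and 4034 in treated cells. The groups did not overlap, and replicate 1 showed the largest difference. The log2 ratio was -1.12 ± 0.46, a 2.18-fold lower level (adjusted p = 0.0164, probe at chr9:124022948-124023007 of mm9). The lymphocyte homing receptors Ccr6 and Cxcr5 fell by 0.97 ± 0.30 and 0.86 ± 0.28, and Cxcr4, which retains cells in marrow, by 0.47 ± 0.21. With the background alternatives Cxcr5 was at -1.59 and -1.78, and Ccr6 was at -1.55 with the processed signals. Receptors for complement fragments and formyl peptides rose. C3ar1 rose by 1.87 ± 0.24, C5ar1 by 1.57 ± 0.14 and Fpr1 by 1.61 ± 0.12. In all, 12 of 30 measured receptors rose and 5 fell, with a median of 0.27, or 0.49 with median centring. With replicate 2 left out 6 receptors were called higher and none lower, and the calls of Ccr2, Ccr6, Cxcr5, Cxcr4 and Cx3cr1 ended (adjusted p from 0.0598 to 0.0795). That of Cxcr4 also ended without replicate 3 (adjusted p = 0.0826) and, at -0.26, under median centring (adjusted p = 0.215).

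Genes that mark monocytes and M-MDSCs moved in both directions. Of 30 measured, 7 rose and 8 fell, with a median of 0.02. Cx3cr1, the fractalkine receptor of patrolling monocytes, stood at 8047, 15815 and 15295 in mock and at 22097, 25532 and 25239 in treated cells, a log2 ratio of 0.96 ± 0.43. Csf1r rose by 0.76 ± 0.23, Itgam by 0.64 ± 0.24 and Fcgr3, a low-affinity IgG receptor, by 0.98 ± 0.18. Mgst1, a glutathione transferase of inflammatory monocytes, fell by 1.13 ± 0.31 and the calcium-binding S100a4 by 0.80 ± 0.34. Ly6c1 at -0.25 ± 0.45 (adjusted p = 0.358) and the endotoxin co-receptor Cd14 at 0.39 ± 0.33 were not called, and the sign of Ly6c1 turned with median centring (0.11). The summed level of the 30 markers lay between 1057121 and 1161946 in mock and between 988493 and 1193645 in treated cells, so these ranges overlap. Without replicate 2, none of these markers were called higher and 2 were called lower, and with median centring 12 were called higher and 4 lower, with a median of 0.31. Cx3cr1 also lost its call in a fit over all 6 arrays (adjusted p = 0.0537), Itgam when its probes were averaged (0.41, adjusted p = 0.114) and without replicate 3 (adjusted p = 0.056). The call of S100a4 ended without replicate 3 (adjusted p = 0.0513) and, at -0.45, under median centring (adjusted p = 0.0673).

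Genes of tissue macrophages rose almost throughout. Of 29 measured markers 27 rose and none fell, 23 of them more than 2-fold, with a median of 2.03 (2.47, 1.84 and 1.79 on the 3 arrays). Clec10a at 0.55 and Timd4 at 0.00 were not called, and Cd163 was not well above background. Without replicate 2, 18 were called higher. The summed level of the 29 genes lay between 109598 and 144855 in mock and between 394949 and 518169 in treated cells. In sorted cells measured in bulk, more macrophages among the cells and more of these transcripts per cell cannot be told apart.

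Dab2, Mrc1 and Slco2b1 stood highest among these markers. Dab2, an adaptor for cargo of clathrin-coated pits, stood at 901, 992 and 1226 in mock and at 7377, 6837 and 8952 in treated cells. Its levels did not overlap, and the log2 ratio was 2.90 ± 0.13 (SD, n = 3, adjusted p = 0.00375, probe at chr15:6390616-6390675 of mm9). Mrc1, the mannose receptor CD206, stood at 2093, 2968 and 4087 in mock and at 23945, 16676 and 20675 in treated cells, a log2 ratio of 2.78 ± 0.64. Replicate 1 was the highest in treated and the lowest in mock cells. Folr2, a folate receptor of resident macrophages, stood at 725, 973 and 1860 in mock and at 7537, 4669 and 6748 in treated cells, a log2 ratio of 2.50 ± 0.79. The organic anion transporter Slco2b1 rose by 2.72 ± 0.54, the hyaluronan receptor Lyve1 by 2.53 ± 0.35 and the Fc receptor-like Fcrls by 2.47 ± 0.63. The lectin Cd209f rose by 2.49 ± 1.13, the widest spread of these. The calls of Folr2 and Cd209f ended without replicate 2 (adjusted p = 0.0634 and 0.0748).

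Genes for the clearance of dying cells and for complement rose as well, and their lists share members with those of macrophages. Folr2 is on the tissue macrophage and the scavenger list, and Itgax on the complement list and that of alveolar macrophages. Mertk, a receptor tyrosine kinase by which phagocytes take up apoptotic cells, stood at 470, 485 and 533 in mock and at 2716, 2175 and 2345 in treated cells, a log2 ratio of 2.28 ± 0.22. Its bridging ligand Gas6 stood at 1029, 1479 and 1749 in mock and at 9587, 5558 and 7594 in treated cells, a log2 ratio of 2.42 ± 0.70. Ligand and receptor thus rose on every array without overlap. Among 29 measured scavenger and efferocytosis genes 15 rose and 2 fell, with a median of 0.76. Itgb3, an integrin subunit, fell by 0.71 ± 0.09 and Scarb1, a receptor for high-density lipoprotein, by 0.59 ± 0.03. The 3 chains of C1q, which starts the classical complement pathway, rose to a like extent. C1qa stood at 4542, 5782 and 7873 in mock and at 36373, 24910 and 29082 in treated cells, a log2 ratio of 2.33 ± 0.59. C1qb rose by 2.49 ± 0.54 and C1qc by 2.25 ± 0.46. Vsig4, a complement receptor that also restrains T cells, rose by 1.82 ± 0.74. Of 25 measured complement genes 13 rose and 2 fell: Cr2, a complement receptor of B cells, by 0.70 ± 0.19 and Cfb, of the alternative pathway, by 0.59 ± 0.13. Leaving out replicate 2 left 11 scavenger and 6 complement genes called higher and none lower, and ended the calls of C1qa, Vsig4, Cr2, Cfb, Itgb3 and Scarb1 (adjusted p from 0.053 to 0.0764). With median centring those of Scarb1 (-0.37, adjusted p = 0.0958) and Cfb (-0.36, adjusted p = 0.113) ended as well. Averaging its 2 probes gave -0.38 for Scarb1, and the background alternatives gave -1.07 and -1.13 for Cr2.

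Genes known from alveolar macrophages, the resident phagocytes of the air spaces, rose to a smaller degree. Of 29 measured 22 rose and none fell, with a median of 1.32. Ear1, an eosinophil-associated ribonuclease of these cells, stood at 4466, 6551 and 7280 in mock and at 41358, 18692 and 25370 in treated cells, a log2 ratio of 2.17 ± 0.91. Siglecf, the lectin that defines alveolar macrophages, stood at 361, 377 and 459 in mock and at 2829, 1244 and 1279 in treated cells, a log2 ratio of 2.06 ± 0.80. Replicate 1 gave the highest treated value for both, and no treated value fell within the mock range. Plet1, a surface protein of these cells, rose by 2.04 ± 0.55, the keratin Krt79 by 2.06 ± 0.66 and the integrin Itgax, or CD11c, by 1.42 ± 0.22. Pparg, the transcription factor on which alveolar macrophages depend, had a mean ratio of 0.81 and the scavenger receptor Marco one of 0.76, and neither was called. The summed level of the list lay between 248063 and 305255 in mock and between 392308 and 624301 in treated cells, and its part in the other results was not tested. Without replicate 2 only 5 members were called, and Ear1, Krt79 and Siglecf did not (adjusted p from 0.0615 to 0.0728).

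Of 34 measured transcription factors of the monocyte lineage 6 rose (17.6%) and 5 fell (14.7%), with a median of 0.07. These shares are near those of all genes, 17.4% and 11.8%. Egr2, which drives late macrophage differentiation, stood at 1027, 572 and 625 in mock and at 2709, 1979 and 2259 in treated cells, a log2 ratio of 1.68 ± 0.25. Maf, a macrophage differentiation factor, rose by 1.36 ± 0.12, and Mitf, which drives lysosomal genes, by 0.83 ± 0.14. Cebpe, a factor of granulocyte maturation, rose by 0.94 ± 0.42. Batf2 fell by 0.50 ± 0.11, the aryl hydrocarbon receptor Ahr by 0.42 ± 0.10, Hes1 by 0.40 ± 0.17 and Klf4, needed for inflammatory monocytes, by 0.38 ± 0.13. No factor was called lower with median centring, without replicate 2 or without replicate 3, and 2 were called higher without replicate 2. The calls of Batf2, Ahr, Hes1 and Klf4 ended with median centring (-0.29, -0.21, -0.23 and -0.15, adjusted p from 0.149 to 0.47) and without replicate 2 or replicate 3 (0.0536 to 0.115). Those of Cebpe and Mitf ended without replicate 2 (adjusted p = 0.0591 and 0.0528). The call of Klf4 also ended in the fits over all 6 arrays (adjusted p = 0.1 and 0.0644), and that of Hes1 without replicate 1 (adjusted p = 0.0545). Hes1 was at -0.62 and -0.69 with the background alternatives, and Mitf at 0.54 when its probes were averaged.

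Genes of lipid uptake and efflux rose as well, and their list shares Trem2 with that of tissue macrophages. Of 26 measured 17 rose and 1 fell, with a median of 0.89. Apoe, the apolipoprotein that carries cholesterol out of macrophages, stood at 20213, 33523 and 36224 in mock and at 155299, 120345 and 120404 in treated cells, a log2 ratio of 2.17 ± 0.67. Abca1, the cholesterol efflux pump, stood at 681, 650 and 753 in mock and at 2855, 2391 and 3386 in treated cells, a log2 ratio of 2.04 ± 0.15. Both were higher on all arrays without overlap. Ch25h, which makes the oxysterol 25-hydroxycholesterol, rose by 2.05 ± 0.12 and the fatty acid receptor Cd36 by 1.47 ± 0.18. Soat1, which esterifies cholesterol, fell by 0.42 ± 0.10. Of 26 measured genes of cholesterol and fatty acid synthesis 7 rose and 2 fell. Of these genes none were called higher without replicate 2, 2 without replicate 3, 3 with averaged probes or processed signals and 4 with a background from negative control spots. The desaturases Scd2 and Scd1 rose by 1.16 ± 0.24 and 0.91 ± 0.49. Insig1, which restrains sterol synthesis, fell by 0.84 ± 0.11. Without replicate 2, 7 genes of uptake and efflux were called higher, and the calls of Apoe, Soat1, Scd2 and Scd1 ended (adjusted p from 0.053 to 0.0756). That of Soat1 also ended without replicate 3 and with median centring (adjusted p = 0.0732 and, at -0.20, 0.324), and that of Scd1 without replicates 1 and 3 (0.0641 and 0.0567).

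Lysosomal genes rose in number but by less, and their list shares Cd68 with that of tissue macrophages. Of 48 measured 25 rose and 1 fell, with a median of 0.39, or 0.65 with median centring. Lgmn, the cysteine protease legumain, stood at 18546, 17459 and 16224 in mock and at 44018, 39174 and 46663 in treated cells, a log2 ratio of 1.31 ± 0.19. The levels were steady within each group. Cathepsins Ctsd and Ctsf each rose by 1.05 ± 0.36, and Atp6v0d2, a subunit of the proton pump, by 1.28 ± 0.48. The one that fell was Tfeb, a transcription factor for lysosomal genes, by 0.41 ± 0.02. Of 20 measured iron and heme genes 9 rose and 2 fell. Fth1, the heavy chain of ferritin, stood at 67408, 75950 and 64228 in mock and at 183391, 176736 and 186682 in treated cells, a log2 ratio of 1.40 ± 0.16. Hp, which encodes the hemoglobin scavenger haptoglobin, fell by 1.02 ± 0.45. Without replicate 2, 5 lysosomal and 2 iron genes were called higher, and Tfeb, Ctsf, Atp6v0d2 and Hp did not pass (adjusted p from 0.05 to 0.0883). Tfeb also did not pass without replicate 3 or with median centring (adjusted p = 0.0642 and 0.389), nor Hp without replicate 3 (0.0539).

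Matrix-degrading enzymes rose as well. Of 31 measured genes of matrix remodelling 19 rose and none fell, with a median of 0.87. Mmp13, an interstitial collagenase, stood at 337, 278 and 315 in mock and at 2104, 2031 and 2075 in treated cells. Both groups were tight, and the log2 ratio was 2.74 ± 0.11. Mmp12, the macrophage elastase, stood at 229, 220 and 247 in mock and at 871, 618 and 983 in treated cells, a log2 ratio of 1.80 ± 0.27. Timp2, an inhibitor of these enzymes, rose by 1.77 ± 0.21, and the secreted matrix protein Spp1 by 1.85 ± 0.25. Without replicate 2, 10 were called higher, these 4 among them.

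Antigen presentation divided by class. Of 19 measured class II genes 10 rose and 1 fell, with a median of 0.50, or 0.83 with median centring. H2-Aa, an alpha chain of MHC class II, stood at 4191, 5248 and 7557 in mock and at 30439, 22685 and 20890 in treated cells, a log2 ratio of 2.15 ± 0.70. Cd74, the invariant chain, stood at 28648, 34693 and 39054 in mock and at 117399, 99936 and 97322 in treated cells, a log2 ratio of 1.63 ± 0.37. H2-Eb1 rose by 2.00 ± 0.28 and H2-Ab1 by 1.62 ± 0.27. Ciita, the factor that switches on these genes, had a mean ratio of 0.11 and was not called. Cd40, a costimulatory receptor, fell by 0.96 ± 0.25. Of 24 measured class I genes 4 rose and 9 fell, with a median of 0.03. The immunoproteasome subunits Psmb10, Psmb9 and Psmb8 fell by 0.74 ± 0.02, 0.58 ± 0.12 and 0.48 ± 0.12, while H2-Q4 rose by 0.86 ± 0.29 and the classical H2-D1 by 0.40 ± 0.13. The falls of the 3 subunits did not pass with median centring (-0.44, -0.35 and -0.24, adjusted p from 0.0507 to 0.231), where 7 class I genes were called higher and 1 lower and H2-D1 was at 0.75. With replicate 2 left out 3 class II genes were called higher and 2 class I genes lower, and the calls of H2-Aa, Cd74, Cd40, Psmb9, Psmb8, H2-Q4 and H2-D1 ended (adjusted p from 0.053 to 0.127), as did that of Psmb8 without replicate 3 (0.0609), where 3 class I genes were called lower, and that of H2-D1 with the scanner's processed signals (0.0665).

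Other surface receptors of myeloid cells moved in part. Of 26 measured C-type lectins 10 rose and 3 fell, with Klrb1b at 1.99 ± 0.13 and Clec4b1 at 1.73 ± 0.42 in front after Mrc1 and Cd209f. Clec4a3 fell by 0.65 ± 0.08. The small fall of Clec4a1 at -0.22 ± 0.03 turned to 0.07 with median centring. Of 14 measured Fc receptors 5 rose and 3 fell. Fcgrt, the neonatal Fc receptor that recycles IgG, rose by 1.52 ± 0.54, while Fcmr and Fcrla, both of B cells, fell by 1.52 ± 0.38 and 0.95 ± 0.28. Fcer1a, the IgE receptor of mast cells and basophils, was not well above background on any treated array and was at least 1.56-fold lower. Of 23 measured adhesion genes 12 rose and 4 fell, among them Itga9 at 1.65 ± 0.35 and Itga4, an integrin of monocyte entry into tissue, at -0.71 ± 0.20 (-0.47 with median centring). Without replicate 2, 5 lectins, 1 Fc receptor and 5 adhesion genes were called higher, and without replicate 3, 6 adhesion genes. The calls of Fcgrt, Fcmr, Fcrla, Fcer1a, Clec4a3, Clec4a1 and Itga4 ended without replicate 2 (adjusted p from 0.0553 to 0.197). Clec4a3 also did not pass with median centring (-0.41, adjusted p = 0.0799). Clec4a1 passed neither without replicate 1 nor without replicate 3 (adjusted p = 0.0625 and 0.183), nor in 4 further settings (0.101 to 0.176). The background alternatives gave -2.29 and -2.52 for Fcmr and -1.64 and -1.74 for Fcrla.

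Genes of the interferon response, the antiviral programme that interferons switch on in cells, were the main group that fell. Of 67 measured 49 fell (11.8% of all genes fell), 2 rose and 16 were not called, with a median of -0.60 (-0.81, -0.42 and -0.61 on the 3 arrays). Rtp4, an interferon-induced chaperone, stood at 11187, 9541 and 11520 in mock and at 2903, 4162 and 4823 in treated cells. No treated value reached the mock range, and the log2 ratio was -1.47 ± 0.42 (SD, n = 3, adjusted p = 0.00874, probe at chr16:23613668-23613727 of mm9). Zbp1, a sensor of Z-form nucleic acids, stood at 7049, 5309 and 6235 in mock and at 1960, 2818 and 2574 in treated cells, a log2 ratio of -1.35 ± 0.47. Xaf1, a pro-apoptotic protein, stood at 2461, 2193 and 2495 in mock and at 867, 1121 and 1203 in treated cells, a log2 ratio of -1.18 ± 0.29. Slfn5, of the Schlafen family, stood at 490, 512 and 599 in mock and at 179, 287 and 271 in treated cells, a log2 ratio of -1.14 ± 0.31. All 4 fell on every array, most on replicate 1. Isg15, a ubiquitin-like protein, fell by 1.03 and Ifit1, which binds viral RNA, by 0.95. The 2 members that rose were Ifnar1, a chain of the receptor for type I interferon, by 0.71 ± 0.10, and Trim25, a ubiquitin ligase of RNA sensing, by 0.85 ± 0.23. Rsad2, Irf1 and Cxcl10 were among the 16 not called, with arrays of both signs for Rsad2 and Cxcl10.

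With median centring 31 of the 67 interferon genes fell and 4 rose, without replicate 3 again 31 fell, and without replicate 2 only 12 fell and none rose. The median was below 0 in each of these settings, from -0.38 to -0.70. Leaving out replicate 2 ended the calls of Rtp4, Xaf1, Ifnar1 and Trim25 (adjusted p from 0.05 to 0.0694). When the 2 probes of Trim25 were averaged its ratio was 0.38 and not called (adjusted p = 0.0971). Averaging the 3 probes of Ifnar1 gave 0.42.

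**Figure D4:**
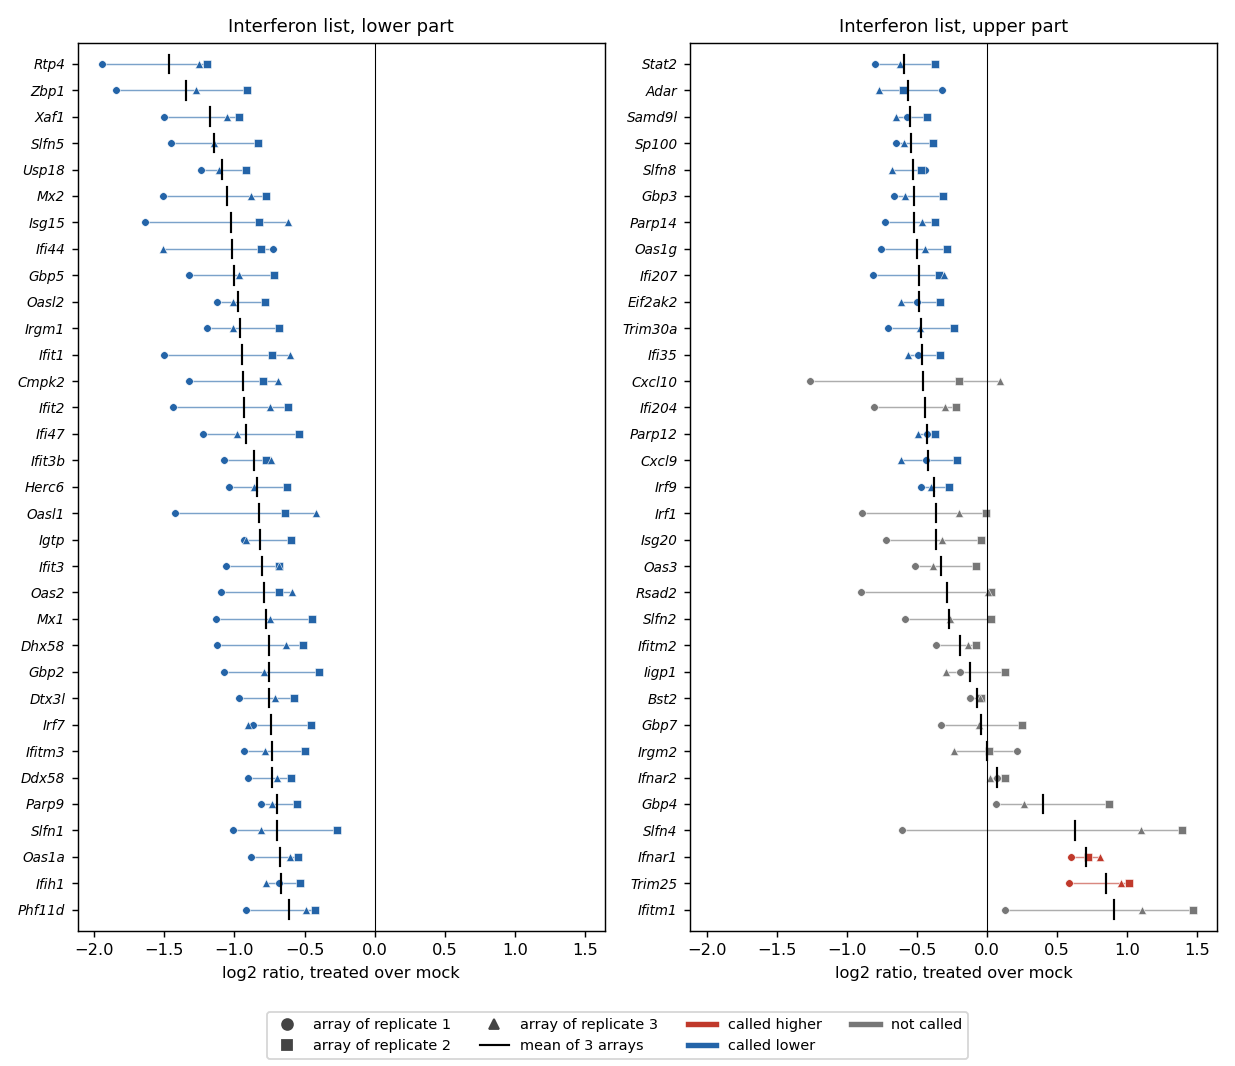
Log2 ratios of treated over mock (horizontal axis) for measured genes of the interferon list (1 is not drawn), ordered by their mean, with a symbol for each lung array, a black bar for the mean and colour for the call. The circle of replicate 1 is the lowest of the 3 symbols for 53 genes, and 2 genes are called higher.

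Many promoters of these genes hold a motif of interferon-induced genes. Its share in the list was not split by call and does not depend on the lung ratios. The core of the interferon-stimulated response element, a pair of GAAA blocks with 2 bases between them, was searched on both strands in the RefSeq promoter windows from 250 bases before to 50 after the transcription start (GRCm38.p6). Of the 67 interferon genes 54 had a window, and 27 of the 54 (50%) held the motif, against 3.99% of 27025 genes. Among all genes called lower 7.0% of 1499 held it, among those called higher 3.42% of 2336 and among all genes tested 3.9% of 12467. Among genes called lower by more than 2-fold 16.9% of 59 held it, among those called higher by more than 2-fold 4.42% of 385. The genes called lower include members of the interferon list. A match describes letters and no occupancy. The 200 bases before the start are given for the 5 largest falls with a match in that stretch, to show the motif in its place, with the matches in capitals. On GRCm38.p6 the stretches lie at chr11:82951902-82952101 (+ strand, Slfn5), chr4:156200819-156201018 (- strand, Isg15), chr3:142496734-142496933 (+ strand, Gbp5), chr11:48871421-48871620 (- strand, Irgm1) and chr19:34640689-34640888 (+ strand, Ifit1).
Slfn5: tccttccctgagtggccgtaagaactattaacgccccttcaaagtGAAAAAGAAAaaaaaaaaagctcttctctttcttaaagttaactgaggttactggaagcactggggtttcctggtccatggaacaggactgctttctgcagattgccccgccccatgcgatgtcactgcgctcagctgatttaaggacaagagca
Isg15: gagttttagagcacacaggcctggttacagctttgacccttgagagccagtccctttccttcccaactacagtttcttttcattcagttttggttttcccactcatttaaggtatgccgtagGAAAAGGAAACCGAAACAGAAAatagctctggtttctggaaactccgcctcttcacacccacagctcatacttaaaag
Gbp5: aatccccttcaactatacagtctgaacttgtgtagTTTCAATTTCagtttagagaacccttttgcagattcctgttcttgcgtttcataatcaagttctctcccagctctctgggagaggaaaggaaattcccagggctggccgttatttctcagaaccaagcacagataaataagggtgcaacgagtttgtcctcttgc
Irgm1: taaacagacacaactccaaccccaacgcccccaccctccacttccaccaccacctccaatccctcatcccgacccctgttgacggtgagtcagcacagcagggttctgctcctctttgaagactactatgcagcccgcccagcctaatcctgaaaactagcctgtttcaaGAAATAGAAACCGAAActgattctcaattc
Ifit1: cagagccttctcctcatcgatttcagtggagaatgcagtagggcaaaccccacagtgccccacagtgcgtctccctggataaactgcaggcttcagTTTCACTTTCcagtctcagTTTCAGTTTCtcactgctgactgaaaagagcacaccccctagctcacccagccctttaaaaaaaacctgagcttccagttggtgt

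Sensors of foreign nucleic acid fell with the interferon genes, some of which are on both lists. Of 24 measured 10 fell and 3 rose, with a median of -0.20 (-0.06 with median centring, -0.34 and -0.39 with the background alternatives). Samhd1, which hydrolyses deoxynucleotides, fell by 1.03 ± 0.19, the exonuclease Trex1 by 0.81 ± 0.19 and Dhx58, a helicase of RNA sensing, by 0.76 ± 0.32. Of 20 measured Toll-like receptors and their adaptors 4 rose (20%) and 6 fell (30%), beside 17.4% and 11.8% of all genes. The surface receptors Tlr5, Tlr4 and Tlr2 rose by 0.70 ± 0.23, 0.65 ± 0.20 and 0.61 ± 0.10, while Irak3, an inhibitor of their signalling, fell by 0.61 ± 0.12 and the adaptor Myd88 by 0.47 ± 0.22. The median of this list was -0.08 and turned to 0.14 with median centring, where no member was called lower and the falls of Irak3 and Myd88 did not pass (-0.40 and -0.26, adjusted p = 0.0662 and 0.244). Of the sensors 6 fell with median centring and without replicate 3, and 3 without replicate 2. Among Toll-like receptors and adaptors none fell without replicate 2 and 1 without replicate 3. Without replicate 2 the calls of Dhx58, Tlr4, Tlr2, Irak3 and Myd88 ended (adjusted p from 0.0598 to 0.0965), as did that of Myd88 without replicate 3 (0.0704) and that of Tlr2 with the replicate block (0.0545). The ratio of Tlr5 was 1.19 and 1.14 with the background alternatives.

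Mediators of suppression rose in part. Arg1, which encodes the arginase by which MDSCs deplete arginine, stood at 1544, 652 and 1002 in mock and at 5036, 5469 and 5636 in treated cells. The treated levels were nearly equal and the mock levels varied, with no overlap. Arg1 was 5.36-fold higher, or 2.42 ± 0.68 on the log2 scale (SD, n = 3, adjusted p = 0.00828, probe at chr10:24636194-24636253 of mm9). Nos2, the inducible nitric oxide synthase, stood at 396, 240 and 253 in mock and at 283, 366 and 309 in treated cells. It was lower in treated cells on replicate 1 and higher on the other 2, at 0.14 ± 0.56 (adjusted p = 0.673). Cd274, which encodes PD-L1, stood at 2165, 1225 and 1388 in mock and at 2302, 2753 and 2766 in treated cells, at 0.75 ± 0.58 (adjusted p = 0.0696). The difference was near 0 on replicate 1 and about 1 on the others. Entpd1, the ectoenzyme CD39 that degrades ATP, rose by 1.14 ± 0.13 and Cd33, an inhibitory lectin, by 0.98 ± 0.19. Of 31 measured 10 rose and 2 fell, with a median of 0.28. With median centring 16 rose, with a median of 0.51, and 16 rose as well in the fit over all 6 arrays without the replicate block. The 2 that fell were Stat3 by 0.53 ± 0.25 and Cybb, the catalytic subunit of the phagocyte oxidase, by 0.29 ± 0.09. Without replicate 1 both Cd274 and Nos2 were called higher (adjusted p = 0.00487 and 0.0385, Nos2 at 0.45), and without replicate 2 the ratio of Nos2 was -0.10. Cd274 was also called with median centring (adjusted p = 0.01) and in the fits over all 6 arrays (0.0266 and 0.00867). Without replicate 2, 2 members were called higher and none lower, and Cd33 did not pass (adjusted p = 0.053). Stat3 and Cybb also did not pass with median centring (adjusted p = 0.236 and, at -0.07, 0.78), and Cybb did not without replicate 3 (0.173).

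Of 25 measured inflammatory cytokines 5 rose (20%) and 2 fell (8%), with a median of 0.12, beside 17.4% and 11.8% of all genes. Il1a stood at 188, 130 and 127 in mock and at 453, 331 and 395 in treated cells, a log2 ratio of 1.42 ± 0.19. Il1b rose by 0.90 ± 0.42 and Il1rn, which blocks the receptor of both, by 0.74 ± 0.12. Tnfsf13b, the B cell survival factor BAFF, rose by 1.10 ± 0.33, and Tnfsf14 fell by 1.07 ± 0.50 and Ltb, of lymphoid cells, by 0.57 ± 0.25. Tnf at 0.98, Il10 at 0.55 and Il6 at 0.22 were not called. Of 28 measured growth factors 12 rose and 2 fell. Igf1, insulin-like growth factor, stood at 1113, 860 and 1204 in mock and at 3184, 2225 and 2934 in treated cells, a log2 ratio of 1.39 ± 0.12, with its 5 probes between 0.29 and 2.02. Gdf15 and Pdgfb each rose by 1.43 (SD 0.16 and 0.09, n = 3) and Inhba, a subunit of activin, by 1.41 ± 0.35. Of 20 measured NF-kB subunits, targets and inhibitors 2 rose (10%) and 4 fell (20%), beside 17.4% and 11.8% of all genes. Relb fell by 0.71 ± 0.07 and Rela by 0.53 ± 0.10, while Nfkbiz, an induced cofactor, rose by 0.87 ± 0.08. The median of this list was -0.16 and turned to 0.07 with median centring, where Rela did not pass (-0.25, adjusted p = 0.285). Without replicate 1, 10 cytokines were called higher, and 3 without replicate 3. With replicate 2 left out 2 cytokines, 6 growth factors and 1 NF-kB gene were called higher and none lower, and the calls of Il1b, Tnfsf13b, Tnfsf14, Ltb, Inhba, Relb and Rela ended (adjusted p from 0.0504 to 0.125). Those of Il1b and Ltb ended without replicate 3 (adjusted p = 0.0601 and 0.0593) and that of Ltb with median centring (-0.36, adjusted p = 0.106). The ratio of Il1a was 2.35 and 2.30 with the background alternatives.

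B cell genes fell although B cells are not the sorted population. Of 31 measured 17 fell and 4 rose, with a median of -0.38, and 11 fell more than 2-fold. Ms4a1, the B cell antigen CD20, stood at 794, 971 and 1443 in mock and at 277, 197 and 224 in treated cells, a log2 ratio of -2.17 ± 0.59 (probe at chr19:11325367-11325426 of mm9). Mzb1, of antibody-secreting and marginal zone cells, stood at 1211, 732 and 953 in mock and at 280, 168 and 245 in treated cells, a log2 ratio of -2.07 ± 0.09. The coactivator Pou2af1 fell by 1.87 ± 0.22 and the transcription factor Bcl11a by 1.81 ± 0.29. Cd79a, which signals for the antigen receptor of B cells, and the BAFF receptor Tnfrsf13c fell by 1.33 ± 0.29 and 1.28 ± 0.44, and the joining chain Jchain by 1.51 ± 0.44. All of these were lower on each array without overlap. The 4 that rose were Blnk at 1.78 ± 0.27, an adaptor that macrophages also use, Cd72 at 1.55 ± 0.19, Cd38 and Cd22. The call of Cd22 ended without replicate 2 or replicate 3 (adjusted p = 0.176 and 0.113) and with averaged probes (0.14, adjusted p = 0.161). It also ended with both background alternatives (0.076 and 0.12) and with scaling between arrays (0.0669). The summed level of the list lay between 47955 and 55271 in mock and between 53873 and 56750 in treated cells. Pax5, Igll1 and Igkc were not well above background, and no probe carried the name of Ighm or Ighd. The part of B cell RNA in the other falls was not tested. Without replicate 2, 4 members were called lower, and Ms4a1, Spib, Jchain, Cd79a, Tnfrsf13c and Cd38 did not pass (adjusted p from 0.053 to 0.083). With the background alternatives the median of the list was -1.07 and -1.13, and Tnfrsf13c was at -2.28 and -2.44. When probes were averaged Bcl11a was at -0.93, Cd79a at -0.84 and Tnfrsf13c at -0.72, all 3 still called.

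Of 21 measured NK cell genes 8 fell and 1 rose, with a median of -0.25 (-0.59 and -0.80 with the background alternatives). Gzma, a granule protease, stood at 2110, 2484 and 1951 in mock and at 860, 745 and 1024 in treated cells, a log2 ratio of -1.32 ± 0.40. Ncr1, the receptor that defines NK cells in mice, had a ratio of -0.40 and was called lower, while perforin Prf1 and Gzmb lay at -0.10 and 0.00 and were not called. The summed level was between 13578 and 15399 in mock and between 7880 and 10090 in treated cells, without overlap. Of 26 measured T cell genes 5 fell and 2 rose, with a median of -0.10, and Cd3g fell by 0.40 ± 0.21. Of the NK cell genes 5 fell without replicate 3 or with median centring and 1 without replicate 2. No T cell gene fell without replicate 2, without replicate 3 or with median centring, and 8 fell without replicate 1. The call of Gzma ended without replicate 2 (adjusted p = 0.0504). That of Cd3g ended without replicate 2, without replicate 3, with median centring and with both background alternatives (adjusted p from 0.0506 to 0.264), where the 2 background alternatives gave -0.81 and -0.90.

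Endothelial genes rose in treated cells. Of 29 measured 24 rose and 2 fell, with a median of 0.91. Vcam1, an adhesion molecule of vessels that macrophages also carry, stood at 644, 1147 and 1991 in mock and at 7374, 6182 and 8511 in treated cells, a log2 ratio of 2.68 ± 0.74. The tight junction protein Cldn5 and the transcription factor Sox18, both of vessels, rose by 1.51 ± 0.18 and 1.48 ± 0.13, and the receptor subunit Ramp2 by 1.58 ± 0.24. Cdh5 at 0.98 and Pecam1 at 0.74 rose as well. The summed level of the list was between 34828 and 47161 in mock and between 77415 and 91208 in treated cells. Glycam1 and Madcam1, addressins of high endothelial venules, went the other way. Glycam1 had the lowest ratio of all genes with a symbol and stood at 405, 617 and 874 in mock and at 65, 110 and 122 in treated cells, where it was well above background on 1 of the 3 arrays. Its log2 ratio was -2.66 ± 0.18 (adjusted p = 0.0038, probe at chr15:103393339-103393398 of mm9) and -4.66 and -5.02 with the background alternatives. Madcam1 fell by 0.51 ± 0.16, by 1.00 and 1.16 with the background alternatives and by 0.28 when its probes were averaged. Without replicate 2, 15 endothelial genes were called higher. The calls of Vcam1 and Madcam1 ended in that setting (adjusted p = 0.0568 and 0.0982), as did that of Madcam1 without replicate 3 (0.0603) and with median centring (0.0632). Prox1, Flt4 and Sele were not well above background.

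Surfactant genes, made by alveolar epithelial cells, rose on every array. Sftpa1 stood at 1044, 1829 and 1151 in mock and at 5712, 5712 and 8336 in treated cells, a log2 ratio of 2.32 ± 0.62. Sftpd rose by 2.26 ± 0.66, Sftpc by 2.07 ± 0.74 and Sftpb by 1.97 ± 0.72, each most on replicate 3 and least on replicate 2. Of 32 measured epithelial genes 11 rose and 1 fell, with a median of 0.42, but 0.48, 0.13 and 1.15 on the single arrays. The epithelial adhesion molecule Epcam at 0.07 and the lung transcription factor Nkx2-1 at 0.30 were not called. Of the 32, 3 were not well above background in mock cells on any array. The summed level was between 70301 and 96821 in mock and between 163422 and 231570 in treated cells. Among 27 measured fibroblast and mesothelial genes 8 rose and 3 fell. Inmt rose by 1.80 ± 0.26 and Mfap4 by 1.64 ± 0.36, whereas Pi16, of adventitial fibroblasts, stood at 9727, 12330 and 9371 in mock and at 2261, 5404 and 3532 in treated cells, a log2 ratio of -1.57 ± 0.48. The collagens Col1a1, Col1a2 and Col3a1 had ratios of 0.49, 0.46 and 0.63 and were not called. The summed level was between 28965 and 41804 in mock and between 44051 and 48073 in treated cells. The part of endothelial, epithelial or fibroblast RNA in the rises of other groups was not tested. The median of the epithelial list was 0.76 without replicate 2, where 8 rose, and 1.02 and 1.12 with the background alternatives, and 19 and 20 of its genes rose in the fits over all 6 arrays. That of the fibroblast list was 0.34, or 0.14 without replicate 3 and 0.60 and 0.61 with the background alternatives, and 4 of its genes rose without replicate 2. The call of Pi16 ended without replicate 2 (adjusted p = 0.0502).

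Neutrophil genes rose in part and differed between arrays. Of 29 measured 8 rose and 1 fell, with a median of 0.80 (0.63, 1.29 and 0.41 on the 3 arrays). Mmp9 rose by 1.76 ± 0.60, Chil1 by 1.51 ± 0.22 and Retnlg, of mature neutrophils, by 1.85 ± 1.08. The calprotectin genes S100a9 and S100a8 had mean ratios of 1.98 and 1.64 and were not called. The summed level was between 118867 and 165365 in mock and between 199980 and 358003 in treated cells. Platelet and erythroid genes did not move as a group. Pf4, Ppbp, Clec1b, Ahsp and Epor rose, the platelet receptors Gp9 at -0.33 and Itga2b at -0.07 were not called, and the globins Hba-a1 at -1.23 and Hbb-bt at -0.94 were not called. Of 17 measured, 5 rose and 1 fell, with a median of -0.02, and the summed level was between 11132 and 17440 in mock and between 47182 and 70346 in treated cells. Dendritic cell genes gave 5 higher and 4 lower of 21 measured, with Cd83 at 1.74 ± 0.12 and Flt3 at -0.83 ± 0.35 (-0.47 when its probes were averaged), and mast cell, basophil and eosinophil genes 2 higher and 3 lower of 16. The part of these cells in the other results was not tested. Of the neutrophil genes 3 were called higher without replicate 2, 13 without replicate 1, 14 without replicate 3, 15 in the fits over all 6 arrays and 19 with median centring. Of the platelet and erythroid genes 2 were called higher without replicate 2, and of the dendritic cell genes 3 without replicate 2 or replicate 3. Leaving out replicate 2 ended the calls of Mmp9, Retnlg, Flt3, Clec1b and Ahsp (adjusted p from 0.053 to 0.0817). That of Retnlg also ended without replicate 1, with scaling between arrays and with the processed signals (adjusted p from 0.0526 to 0.0674), and Mmp9 was at 2.95 and 2.96 with the background alternatives.

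**Figure D5:**
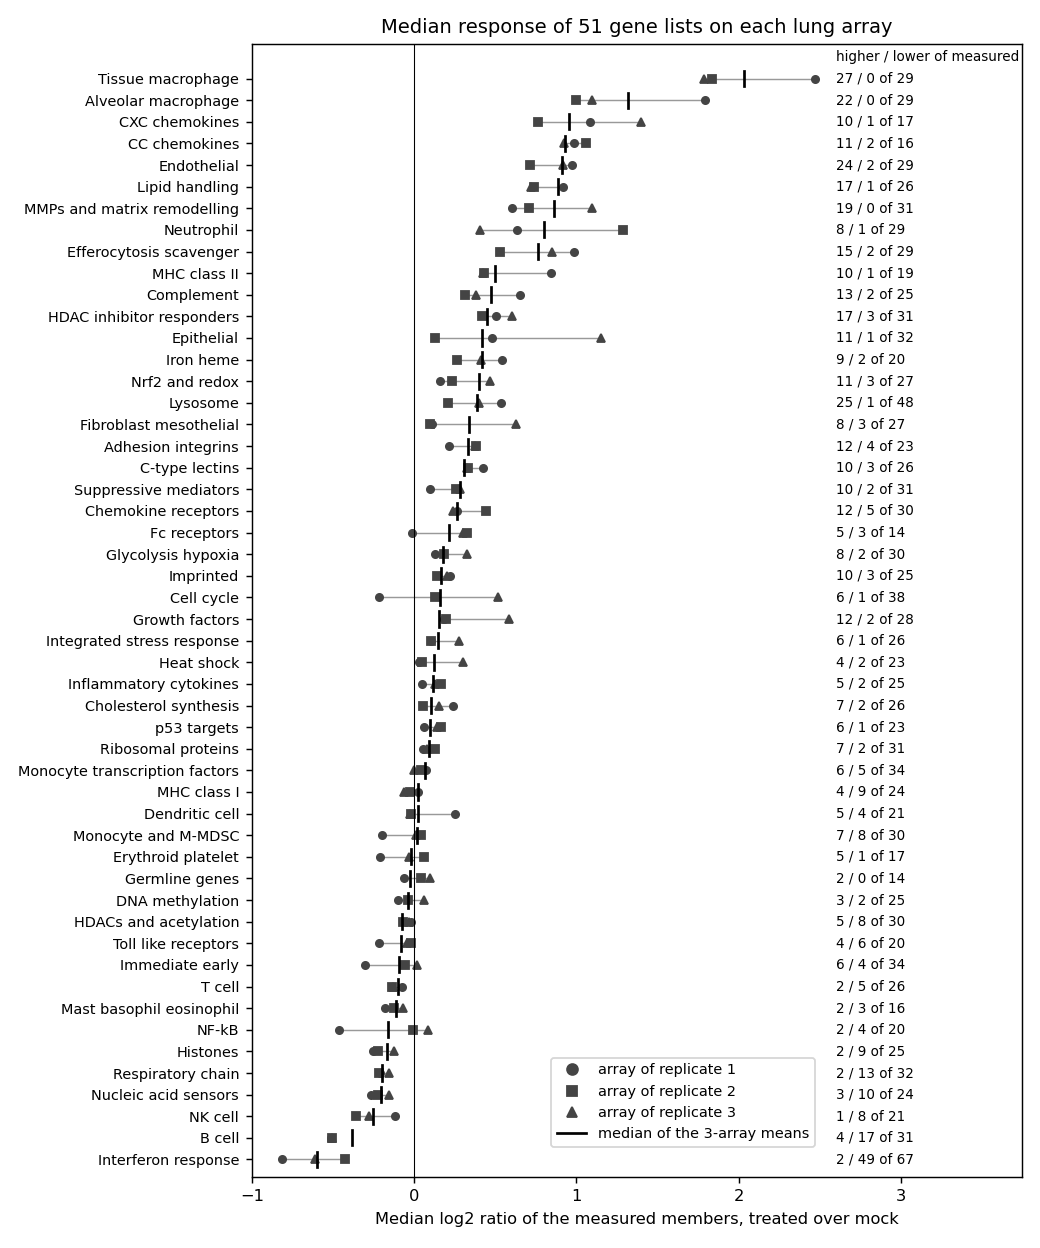
Median log2 ratio of treated over mock (horizontal axis) over the measured members of 51 gene lists, with a symbol for each lung array, a black bar for the median of the 3-array means and, at the right, the members called higher and lower. Tissue macrophage genes stand highest at 2.03 and interferon genes lowest at -0.60, and most other medians lie within 1 of 0.

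Dnmt1, Hdac1, Hdac2 and Hdac3, main targets of the drugs, were not called, while the methyltransferase Dnmt3a rose. Dnmt1, the maintenance methyltransferase and main target of azacytidine, had a ratio of -0.19 ± 0.18 (adjusted p = 0.173). The class I deacetylases Hdac1, Hdac2 and Hdac3, on which entinostat acts, had ratios of 0.11 ± 0.07, -0.10 ± 0.01 and -0.09 ± 0.07 and were not called. The signs of Dnmt1 and Hdac3 turned with median centring (0.04 and 0.12), that of Hdac1 when its probes were averaged (-0.02), and Hdac2 was called lower with the processed signals (-0.40, adjusted p = 0.0384). Dnmt3a, a de novo methyltransferase, stood at 389, 603 and 622 in mock and at 958, 887 and 1131 in treated cells, a log2 ratio of 0.91 ± 0.37. Among genes that handle nucleoside drugs, the transporter Slc29a1 rose by 1.05 ± 0.08 and the kinase Dck fell by 0.74 ± 0.07. Of 25 measured genes of DNA methylation and nucleoside handling 3 rose (12%) and 2 fell (8%), beside 17.4% and 11.8% of all genes. Hdac9, a class II deacetylase, stood at 160, 215 and 214 in mock and at 469, 408 and 402 in treated cells, a log2 ratio of 1.13 ± 0.37, and the acetyltransferase Crebbp rose by 0.97 ± 0.21. Sirt1, an NAD-dependent deacetylase, fell by 0.75 ± 0.12 and the corepressor Sin3a by 0.58 ± 0.09. Of 30 measured genes of histone acetylation 5 rose (16.7%) and 8 fell (26.7%), beside 17.4% and 11.8% of all genes. With median centring 5 rose and 1 fell, without replicate 3, 3 rose and 2 fell, and without replicate 2 none passed. Of the genes of DNA methylation 1 rose and 1 fell without replicate 2, and 6 rose without replicate 1. Without replicate 2 the calls of Dnmt3a, Dck, Hdac9, Crebbp, Sirt1 and Sin3a ended (adjusted p from 0.0506 to 0.0664), and that of Sin3a with median centring (-0.36, adjusted p = 0.0905).

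Genes listed here as responders to deacetylase inhibitors rose more often than they fell. Of 31 measured 17 rose and 3 fell, with a median of 0.45, or 0.71 with median centring. The list was chosen with earlier results of these data known, so these counts are a description only. Txnip, an inhibitor of thioredoxin, rose by 1.65 ± 0.25 and Syt11, a vesicle protein, by 1.45 ± 0.06. Armcx2, of a family encoded on the X chromosome, stood at 257, 300 and 287 in mock and at 866, 801 and 772 in treated cells, a log2 ratio of 1.53 ± 0.19. Selenop, a selenium carrier, stood at 18958, 28363 and 27493 in mock and at 62603, 56259 and 65032 in treated cells, a log2 ratio of 1.32 ± 0.37. Neither overlapped between groups. Clu, the chaperone clusterin, fell by 0.90 ± 0.15. Armcx5, of the family of Armcx2, was called lower too, but not with median centring (-0.26, adjusted p = 0.178) or without replicate 2 (adjusted p = 0.073). Cdkn1a, the cell cycle inhibitor p21 and a standard readout of these drugs, had a ratio of 0.45 ± 0.27 (adjusted p = 0.0476), near the threshold, and H1f0, another such readout, one of 0.03. Germline genes are silenced by DNA methylation in body cells. Of 29 on the array 15 were not well above background. Of the 14 measured 2 rose (14.3%, beside 17.4% of all genes), Dpep3 by 0.69 ± 0.10 and Tex14 by 0.41 ± 0.10. Of 25 measured imprinted genes 10 rose and 3 fell, with Sgce at 1.19 ± 0.20 and Peg12 at -0.88 ± 0.14. Of 25 measured histone genes 2 rose and 9 fell, and with median centring 2 rose and none fell. Without replicate 3, 2 histone genes fell, and without replicate 1, 6 rose. With replicate 2 left out 11 responders and 3 imprinted genes were called higher, no histone or germline gene was called, and the calls of Clu, Dpep3, Tex14 and Cdkn1a ended (adjusted p from 0.053 to 0.216), and those of Tex14 and Cdkn1a without replicate 3 (0.0574 and 0.157). The call of Cdkn1a also ended with both background alternatives, with no filter on dim probes and with scaling between arrays (adjusted p from 0.0548 to 0.0866), and its ratio was 0.68 with median centring. The background alternatives gave 1.68 and 1.61 for Dpep3, 0.81 and 0.82 for Tex14 and -1.47 and -1.65 for Peg12.

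Among immediate early genes Egr1 and Egr2 rose by 1.49 ± 0.10 and 1.68 ± 0.25, while Nr4a2, an orphan nuclear receptor, stood at 2090, 1693 and 1469 in mock and at 534, 800 and 736 in treated cells, a log2 ratio of -1.35 ± 0.54. Of 34 measured 6 rose (17.6%) and 4 fell (11.8%), near the shares of all genes (17.4% and 11.8%), with a median of -0.09 that turned to 0.15 with median centring. Redox genes rose more often, 11 of 27 measured against 3 that fell. The metallothioneins Mt2 and Mt1, which bind zinc, rose by 1.19 ± 0.40 and 1.02 ± 0.31, the transferase Gsta3 by 1.49 ± 0.30, and glutathione reductase Gsr fell by 0.88 ± 0.24. Of 38 measured cell cycle genes 6 rose (15.8%) and 1 fell (2.63%), beside 17.4% and 11.8% of all genes. The number that rose was 11 without replicate 1, 1 without replicate 2 and 2 without replicate 3. Stmn1 rose by 1.03 ± 0.10 and Mki67, the proliferation marker Ki-67, by 0.56 ± 0.23. The median of the cell cycle list was -0.22, 0.13 and 0.52 on the 3 arrays, so it had both signs. Among 30 measured glycolysis and hypoxia genes 8 rose and 2 fell, with Aldoc at 1.13 ± 0.17, Gapdh at 0.70 ± 0.11 and the stress-induced Ndrg1 at -1.29 ± 0.38. Of 32 measured respiratory chain genes 13 fell and 2 rose, with Ndufa4 at -0.58 ± 0.14. The median of that list was -0.20 and turned to 0.08 with median centring, where none fell and Ndufa4 did not pass (-0.36, adjusted p = 0.124). Genes of p53, of the integrated stress response, of heat shock and of the ribosome rose in 6 of 23, 6 of 26, 4 of 23 and 7 of 31 measured, and fell in 1, 1, 2 and 2. The shares that rose were 26.1%, 23.1%, 17.4% and 22.6%, beside 17.4% of all genes. Those that fell were 4.35%, 3.85%, 8.7% and 6.45%, beside 11.8%. Sesn1, a p53 target, rose by 1.18 ± 0.12 and the chaperone Hspa8 by 0.98 ± 0.21. With replicate 2 left out 2 immediate early, 4 redox, 2 glycolysis, 2 p53 and 2 heat shock genes were called higher, and none of the stress response or the ribosome. No respiratory chain gene fell in that setting, and 6 fell without replicate 3. With median centring 13 glycolysis and 16 ribosome genes rose. The calls of Nr4a2, Mt2, Gsr, Mki67, Gapdh and Ndufa4 ended without replicate 2 (adjusted p from 0.05 to 0.0824). That of Mki67 also ended without replicate 3 (adjusted p = 0.0551), and with median centring Gapdh was at 1.05 and Gsr at -0.58.

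Some of the largest changes belong to no list. Cd81, a tetraspanin, stood at 4417, 5264 and 6165 in mock and at 30016, 26244 and 30297 in treated cells, a log2 ratio of 2.46 ± 0.26. The glycosyltransferase B3galnt1 rose by 2.42 ± 0.61, Tmem37 by 2.35 ± 0.16, Neurl1a by 2.35 ± 0.40, Zmynd15 by 2.33 ± 0.24 and the sodium channel subunit Scnn1a by 2.23 ± 0.36. In the other direction, Frat1 and Frat2, which inhibit GSK3 in Wnt signalling, fell by 1.47 ± 0.22 and 1.43 ± 0.25. Frat1 stood at 664, 883 and 828 in mock and at 232, 376 and 262 in treated cells. Frat2 stood at 555, 560 and 528 in mock and at 176, 250 and 190 in treated cells, so both fell below their mock range on all arrays. Calhm6, a channel-like protein, fell by 1.49 ± 0.27, the DNA-binding Ifi209 by 1.35 ± 0.40, isocitrate dehydrogenase Idh1 by 1.26 ± 0.23 and heparanase Hpse by 1.25 ± 0.38. Ly6d, of the Ly6 family, was at -0.41, -1.63 and -1.97 on the 3 arrays, and its fall of 1.34 ± 0.82 passed narrowly (adjusted p = 0.0388). The calls of Idh1 and Ly6d ended without replicate 2 (adjusted p = 0.0506 and 0.179), and that of Ly6d also without replicate 3 (0.086) and with both background alternatives (0.0505 and 0.0518). Of the 10 genes that fell more than 4-fold, 3 have a symbol and 7 carry an identifier that was matched to no gene name here.

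The 6 highest and 6 lowest genes with a symbol were set beside the bone marrow as a description, without a test, since they were chosen by their lung ratios and their probes were kept through the lung arrays alone. Of the 12 genes, 6 were well above background on no marrow array in either channel, namely Cxcl3, Mmp13, Glycam1, Ms4a1, Pou2af1 and Ccl19, so their marrow ratios measure no response. Mrc1 and Bcl11a were well above background on every marrow array in both channels and had marrow ratios of -0.10 ± 0.05 and -0.32 ± 0.06 (SD, n = 3), beside 2.78 and -1.81 in the lung. Ccl7, at -0.13 ± 0.14 in marrow, Pf4, at 0.47 ± 0.27, Dab2, at 0.28 ± 0.12, and Mzb1, at 0.17 ± 0.08, were well above background there on some arrays or in 1 channel. Across all genes tested the 2 responses differed at 3363 of 21175 (15.9%, limma's test of the difference), a count that includes genes measured in the lung alone. The lung arrays share 1 slide and the marrow arrays another, and the 2 factors, tissue and slide, cannot be told apart. Further genes were looked up after their lung values were seen and are given without a test as well. The interferon genes Rtp4 and Zbp1 had marrow ratios of -1.63 and -1.05, beside -1.47 and -1.35 in the lung, and Ccr2 one of -0.84, beside -1.12. Csf1r was at -1.14 in marrow against 0.76 in the lung, and Cx3cr1 at -1.71 against 0.96. Whether these further genes were well above background on the marrow arrays is not given here. The rest of the 67 measured interferon genes is not set beside the marrow.

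The base composition of the promoters was counted as a description, without a test. Over the RefSeq windows the median number of CG dinucleotides per 300 bases was 18 for the 12467 tested genes with a window, 17 for genes called higher and 20 for genes called lower. It was 11 for genes more than 2-fold higher and 8 for those more than 2-fold lower. A window with fewer than 5 CG dinucleotides was found for 23.9% and 25.4% of these 2 groups and for 15% of all. TCACGTGA, the element of lysosomal genes that TFEB and MITF recognise, was present in 6 of 38 lysosomal gene promoters (15.8%) and in 1.12% of the 27025 genes with a window. TGANTCA, the AP-1 motif, was present in 9 of 22 tissue macrophage promoters (40.9%), those of Folr2, Ms4a7, Cd68, Trem2, Gpnmb, Slco2b1, Igf1, Cd209f and Cd209g, and in 8.97% of those 27025 genes. An NF-kB motif, GGG and TTTCC with 2 bases between them, was present in 4 of 16 promoters of the NF-kB list (25%) and in 1.89% of those genes. All motifs were searched on both strands, and the matches describe letters in these windows only. The lists named here were picked from many pairs of list and motif. The AP-1 motif was also present in 7 of 17 inflammatory cytokine promoters (41.2%) and in 4 of 12 germline gene promoters (33.3%). The median log2 ratios of those 2 lists were 0.12 and -0.03.

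The genes nearest the threshold show how small a called change could be. Pdik1l at 0.37 ± 0.21, Cyb5b at 0.27 ± 0.12 and Per2 at 0.26 ± 0.11 lay just inside it (adjusted p = 0.0499 for each), and Per1 at -0.68 ± 0.45, Eps15 at -0.23 ± 0.07 and Prrt1 at 0.79 ± 0.53 just outside (adjusted p = 0.05 for each when rounded).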

How the data were processed

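Lung and bone marrow M-MDSCs were hybridised on 6 dual-colour Agilent arrays, 3 for each tissue, with mock RNA in Cy3 and treated RNA in Cy5 and no dye swap. Spot intensity was deposited by the authors as scanner output of Feature Extraction 10.7.3.1, per the file headers, which place probes on mm9. The authors also deposited a table of normalised log2 ratios. Its headings name mock over treated, but its lung columns correlated at 0.9998 to 1 with Cy5 over Cy3. That correlation cannot show which RNA carried Cy5. The direction used here, treated over mock, rests on the labelled dyes alone. limma is named in the submitters' processing notes.

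Mean signals were corrected with normexp (offset 50) against the local background and fitted by loess within each array (limma 3.58.1, R 4.3.3). Control spots and outlier flags were left out, spots of a probe averaged, and probes kept if well above background on 2 or more lung arrays in a channel. The brightest probe stood for a gene. The mean of the 3 lung ratios was tested against 0 with lmFit and eBayes, with Benjamini-Hochberg adjustment over 21175 genes and a threshold of 0.05. Adjusted p-values in the text are limma's. Levels are normalised intensities of a channel.

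Of 39429 probes 26581 were named by accession, 2597 by symbol and 492 by synonym through RefSeq, and 9759 kept the name in the file. The text names the 30 highest and 30 lowest called genes with a symbol, up to 4 called members of each list in each direction, and a set of fixed genes; others were chosen after their values were seen. Members and lists were chosen with earlier results of these data known. Some genes are on several lists, so counts of different lists are not independent. The fit was tested on simulated data. Alternatives changed the background, centring, scaling, filter, probe rule and arrays used. Replicate numbers were not taken to pair lung with marrow arrays, except in the fits with a replicate block. Deviations of same-numbered arrays correlated at -0.00146, 0.121 and 0.0477, and those of differently numbered arrays at -0.123 to 0.0405. These values cannot show whether the arrays share mice. Some genes are not reported here by name.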

Additional observations from a re-analysis of the deposited data

Results flagged for a closer look

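The lung ratio stood apart from the marrow ratio at the 6 highest and the 6 lowest lung genes with a symbol. These genes were chosen by their lung ratios and their probes were kept through the lung arrays alone, so the differences are a description. Lung minus marrow was 2.88 for Mrc1 and -1.49 for Bcl11a on the log2 scale, both well above background on every marrow array in both channels. It was 3.43 for Ccl7, 2.62 for Dab2, 2.57 for Pf4 and -2.24 for Mzb1, which were above background in marrow in part. For genes well above background on no marrow array the difference only restates the lung ratio: 2.89 for Cxcl3, 2.78 for Mmp13, -2.53 for Glycam1, -2.38 for Ms4a1, -2.01 for Pou2af1 and -1.75 for Ccl19. Tissue and slide cannot be told apart.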

How the results depend on the processing

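The main setting called 6200 genes, 3694 higher and 2506 lower, with 562 and 139 past 2-fold. Processed signals gave 1381 higher and 458 lower past 2-fold, and a background from negative control spots 1198 and 342. Median centring gave 481 lower, 1086 higher past 2-fold and 89.6% of calls higher, against 59.6%. Leaving out 1 lung array gave 760 to 6740 genes called, 628 to 4086 higher, 132 to 2654 lower, 454 to 594 past 2-fold higher and 78 to 150 past 2-fold lower, with the fewest without replicate 2. The replicate block over all 6 arrays gave 7038 calls, and the same arrays without it 7544. Median centring turned the sign of Clec4a1 to 0.07, Rpl18 to 0.04, Rps18 to 0.08, Ly6c1 to 0.11, Dnmt1 to 0.04 and Hdac3 to 0.12. Averaged probes turned Ms4a4c to -0.29 and Hdac1 to -0.02, and leaving out replicate 2 turned Nos2 to -0.10, while leaving out replicate 1 gave it 0.45. The cause was not tested. Dim probes, near background in a channel, have ratios that the background correction sets in part.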
